A study of Mus musculus with 2 samples.

Results

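The genes described here encode the parts of the NADPH oxidase that makes superoxide, namely Cybb, Nox1, Cyba, Ncf1 and Ncf4, and the enzymes that take superoxide and hydrogen peroxide away again, namely Sod1, Sod2, Cat and Gpx1. The 9 genes were chosen by name from 14870 mouse genes with at least 1 assembled locus. Total RNA came from wild-type (WT) mouse bone marrow cells, and by the labels the groups differed in the added factor. The M group was treated with M-CSF, the growth factor that keeps macrophage precursors alive and dividing, and the MR group with M-CSF and RANKL, the ligand that turns these precursors into bone-resorbing osteoclasts. Each group was a single library, which leaves every difference without replicates and without a p-value. The library labels give 2 days with M-CSF, followed in MR by 2 days with M-CSF and RANKL. They give no further days for M, so an equal time in culture cannot be read from them. The culture method of the study gives a longer time with RANKL, and no source names the day of harvest. The labels name neither the age of the mice nor the number of animals.

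The phagocyte NADPH oxidase passes electrons from NADPH across a membrane to oxygen, which yields superoxide. Its membrane core is made of Cybb (gp91phox, also called NOX2) and Cyba (p22phox), and it works only after cytosolic proteins such as Ncf1 (p47phox) and Ncf4 (p40phox) and a Rac GTPase have joined it. Superoxide dismutases turn superoxide into hydrogen peroxide, and catalase and the glutathione peroxidases break the peroxide down. In macrophages this oxidase serves the killing of microbes, and in osteoclast precursors reactive oxygen species are known as part of the RANKL response.

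The level of a gene is given as TPM, the share of transcripts on a fixed scale, which is corrected for transcript length and library size and can therefore be compared between genes of a library. The authors assembled the reads into loci, and the TPM of a gene is the sum over the loci that lie on it in the GENCODE vM21 annotation of the GRCm38 (mm10) genome. The log2 ratio of MR to M was taken after 1 was added to each TPM. A gene was counted as different when this ratio was above 1 or below -1, which is a rule of size and not a test. Intervals are 95% counting intervals from an estimated number of read pairs. They cover counting error only and say nothing about the spread between cultures.

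The aligned bases amounted to 3.63 Gb in M and 2.98 Gb in MR. Osteoclast markers followed the labels, with 9 of 9 above a log2 ratio of 1, beside 21.1% of all genes compared. Their TPM summed to 126 in M and 24993 in MR. Calcr, Oscar, Dcstamp and Ocstamp had no locus in M, whereas Ctsk, the collagen-cleaving protease of osteoclasts, went from 53.1 TPM in M to 12867 in MR. Neutrophil markers had a locus in both libraries for 12 of 12 genes, with S100a8 at 495 TPM in M and 278 in MR.

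The start regions of 4 of these genes are shown because the assembled loci can be set against them, and because Cybb, Cyba and Ncf1 were lower and Sod1 higher in MR. RefSeq on GRCm38.p6 had a start region for 8 of the 9 genes, all but Ncf4. Each line holds 250 bases before the annotated start and the first 30 from it, 280 in all, 5′ to 3′ on the strand of the gene. Capitals mark the bases inside the locus assembled from M.
Cybb, chrX:9469295-9469574, minus strand: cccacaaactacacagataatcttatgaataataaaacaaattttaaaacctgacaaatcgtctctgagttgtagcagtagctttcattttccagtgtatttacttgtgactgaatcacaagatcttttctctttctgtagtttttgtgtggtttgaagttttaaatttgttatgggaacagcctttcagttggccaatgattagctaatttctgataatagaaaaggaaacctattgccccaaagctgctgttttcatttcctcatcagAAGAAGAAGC
Cyba, chr8:122432911-122433190, minus strand: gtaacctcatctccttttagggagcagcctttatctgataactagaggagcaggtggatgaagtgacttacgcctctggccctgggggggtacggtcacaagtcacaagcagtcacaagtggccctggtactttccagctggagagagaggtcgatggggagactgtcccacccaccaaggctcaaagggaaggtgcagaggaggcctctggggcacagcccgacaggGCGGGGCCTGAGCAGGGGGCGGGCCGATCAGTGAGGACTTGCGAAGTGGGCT
Ncf1, chr5:134229596-134229875, minus strand: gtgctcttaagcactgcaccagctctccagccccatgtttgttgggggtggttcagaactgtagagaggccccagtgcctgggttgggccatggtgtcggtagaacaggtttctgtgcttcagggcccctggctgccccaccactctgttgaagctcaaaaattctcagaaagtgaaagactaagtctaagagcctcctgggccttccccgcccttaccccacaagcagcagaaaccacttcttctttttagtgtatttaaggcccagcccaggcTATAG
Sod1, chr16:90220512-90220791, plus strand: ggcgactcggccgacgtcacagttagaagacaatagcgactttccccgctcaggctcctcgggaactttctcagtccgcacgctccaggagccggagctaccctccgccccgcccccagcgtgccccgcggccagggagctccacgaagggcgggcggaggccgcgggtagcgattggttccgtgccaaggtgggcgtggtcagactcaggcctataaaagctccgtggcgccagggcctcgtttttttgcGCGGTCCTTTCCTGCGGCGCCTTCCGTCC

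With the annotated start as position 0, the Cybb locus began at 20 in M and 25 in MR, that of Ncf1 at 25 and 30, and that of Sod1 at 1 and 17. The Cyba locus began upstream of the annotated start, at -22 in M and -6 in MR. The assembled loci of these 4 genes thus began within 30 bases of the annotated start in both libraries. This did not hold for all of the start regions not shown. In M and MR the Cat locus began at 18 and 23, that of Sod2 at 8 and 88 and that of Gpx1 at 154 and 150. The Nox1 loci began at -25700 in M and 33 in MR. The letters GAGGAA or the reverse TTCCTC, the core bound by PU.1 and other ETS factors, were searched on both strands in the 250 bases before to 50 after the start. They stood in 4 of the 8 start regions (Cybb at 9, Nox1 at -23, Sod2 at -203 and Cat at -235) and in 28.3% of 32851 mouse start regions of the same length. CCAAT or ATTGG stood in 4 of the 8 (Cybb, Sod1, Sod2 and Cat) and in 37.4% of all. The GC content was 35.3% for Cybb, 60.7% for Cyba, 54% for Ncf1 and 66.7% for Sod1.

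In both libraries all 9 genes had an own locus, and all passed the filter of 1 TPM in at least 1 library. Of the 9, 5 were over the threshold (55.6%), against 34.1% of all 13383 genes compared. Ncf4 and Sod1 were above 1, as were 21.1% of all genes. Cybb, Cyba and Ncf1 were below -1, as were 13.0% of all genes. The median log2 ratio of the 9 was -0.36, and that of all genes was 0.21. With 9 genes chosen by name these shares describe the genes and say nothing of other genes of the pathway.

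**Figure D1:**
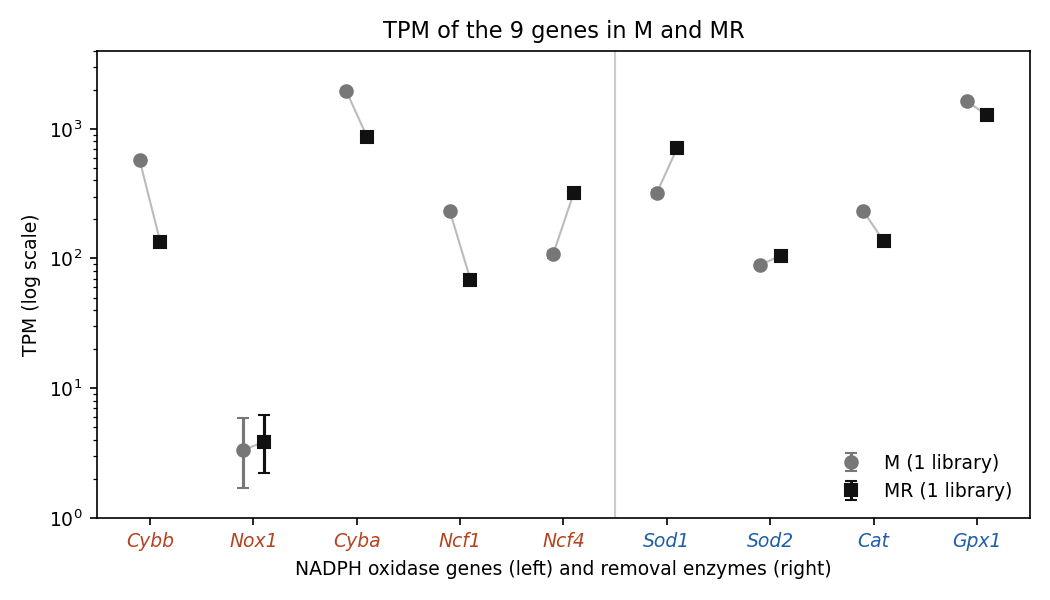
TPM on a log axis of the 5 oxidase genes and 4 removal enzymes in M (grey circles) and MR (black squares), 1 library each; bars are 95% counting intervals and are smaller than the symbols for all but Nox1. Cybb, Cyba, Ncf1, Cat and Gpx1 were lower in MR, and Ncf4 and Sod1 showed the opposite order.

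Cybb carries the flavin and haem groups through which the electrons pass, and it is the catalytic subunit. It lies on chromosome X from 9435252 to 9487771, minus strand (ENSMUSG00000015340.10). Its level was 575 TPM (566 to 584) in M and 134 TPM (129 to 139) in MR. This was the lowest ratio of the 9, a 4.28-fold lower level in MR, with a log2 ratio of -2.09 (-2.15 to -2.03) from about 15297 and 2820 read pairs. In both libraries Cybb was among the more abundant genes, at percentile 98.2 of the TPM values in M and 91.5 in MR. Its ratio was at percentile 3.31. In bulk RNA, fewer cells of a type and less RNA per cell cannot be told apart.

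Nox1 is another catalytic subunit, best known from the epithelium of the colon, on chromosome X from 134086421 to 134221956, minus strand (ENSMUSG00000031257.14). It was near the lower limit of what could be measured, with 3.33 TPM (1.69 to 5.89) in M and 3.84 TPM (2.22 to 6.18) in MR. These rested on about 11 and 17 read pairs, and the log2 ratio of 0.16 had an interval from -0.67 to 0.99. A difference within that range was not detectable at this depth. The reads were assembled in 3 pieces in M and 2 in MR, and adding pieces of a transcript overstates its level. Nox1 shares 399 exon bases with Cstf2 on the opposite strand, and whether the libraries kept the strand is not stated. Cybb had 172.6 times the TPM of Nox1 in M and 35.0 times in MR.

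Cyba, the partner without which the catalytic subunit is not stable, lies on chromosome 8 from 122424776 to 122432930, minus strand (ENSMUSG00000006519.11). It was the most abundant of the 9 in M, with 1951 TPM (1906 to 1998), and had 867 TPM (833 to 902) in MR. The level was 2.25-fold lower in MR, with a log2 ratio of -1.17 (-1.24 to -1.10). Cyba was lower in MR by a smaller factor than Cybb, so that the ratio of Cyba to Cybb went from 3.39 in M to 6.46 in MR, a 1.90-fold difference (1.79 to 2.02).

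Ncf1 is the organizer that brings the other cytosolic proteins to the membrane after it is phosphorylated. It lies on chromosome 5 from 134220053 to 134229625, minus strand (ENSMUSG00000015950.13). Its level was 233 TPM (224 to 242) in M and 68.8 TPM (63.5 to 74.4) in MR, 3.39-fold lower, with a log2 ratio of -1.74 (-1.87 to -1.62). The ratio of Ncf1 to Cybb was 0.405 in M and 0.512 in MR, a 1.26-fold difference (1.15 to 1.39), which is small beside the difference of either gene. Ncf1 shares 408 exon bases with Gtf2ird2 on the opposite strand, whose level was 4.97 TPM in M and 5.27 TPM in MR.

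Ncf4 binds phosphatidylinositol 3-phosphate on the membrane of phagosomes. It lies on chromosome 15 from 78244801 to 78262580, plus strand (ENSMUSG00000071715.12). Its order was opposite to that of Cybb, Cyba and Ncf1, with 107.8 TPM (101 to 115) in M and 321 TPM (307 to 335) in MR. Ncf4 was thus 2.98-fold higher in MR, with a log2 ratio of 1.56 (1.45 to 1.68) from about 884 and 2077 read pairs. The ratio of Ncf4 to Ncf1 was 0.463 in M and 4.67 in MR, a 10.1-fold difference (8.96 to 11.3). Relative to Cybb, Ncf4 went from 0.188 to 2.39, a 12.7-fold difference (11.7 to 13.9). Among the 5 oxidase genes, Ncf4 was the fourth in M and the second in MR.

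The summed TPM of the 5 oxidase genes was 2870 in M and 1395 in MR, 2.06-fold lower. Most of this sum was Cyba in both libraries.

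Sod1, the copper and zinc dismutase of the cytosol, lies on chromosome 16 from 90220754 to 90226329, plus strand (ENSMUSG00000022982.10). Its level was 317 TPM (299 to 336) in M and 712 TPM (682 to 744) in MR. It was 2.25-fold higher in MR, with a log2 ratio of 1.17 (1.06 to 1.27), and 0.97 under median-of-ratios scaling, which is within the threshold. Scaf4 lies on the opposite strand but shares 0 exon bases with Sod1 in the annotation.

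Sod2, the manganese dismutase of the mitochondrial matrix, lies on chromosome 17 from 13006846 to 13040063, plus strand (ENSMUSG00000006818.5). It had 88.9 TPM (85.1 to 92.8) in M and 105.2 TPM (99.5 to 111) in MR, with a log2 ratio of 0.24 (0.14 to 0.34). This is close to the median of all genes, at percentile 51.7. The value depended on the unit, since the listed coverage gave 0.81. In M the listed coverage of the main Sod2 locus was 89.0, whereas its FPKM corresponds to 147.8, and in MR the values were 132 and 139. The Sod2 locus extended from 13007847 to 13018086 in M and from 13007927 to 13016658 in MR, so that the assembled ends differed as well.

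The sum of both dismutases was 406 TPM in M and 818 TPM in MR, 2.01-fold higher. Sod1 made up most of it, and the ratio of Sod1 to Sod2 went from 3.57 to 6.77, a 1.90-fold difference (1.72 to 2.10). Set against the catalytic subunit of the oxidase, Sod1 went from 0.552 times the TPM of Cybb in M to 5.30 times in MR, a 9.62-fold difference (8.85 to 10.4). Cybb was thus above Sod1 in M and below it in MR.

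Cat, the catalase of peroxisomes, lies on chromosome 2 from 103453849 to 103485160, minus strand (ENSMUSG00000027187.10). It had 232 TPM (224 to 240) in M and 135 TPM (128 to 142) in MR. The level was 1.72-fold lower in MR, with a log2 ratio of -0.77 (-0.86 to -0.69), which is within the threshold.

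Gpx1, a selenium-containing peroxidase that uses glutathione, lies on chromosome 9 from 108338903 to 108340343, plus strand (ENSMUSG00000063856.7). It had 1632 TPM (1600 to 1664) in M and 1269 TPM (1237 to 1301) in MR, 1.29-fold lower, with a log2 ratio of -0.36 (-0.41 to -0.32). In MR it was the most abundant of the 9 genes. Gpx1 had 7.03 times the TPM of Cat in M and 9.38 times in MR, and 5.15 times the TPM of Sod1 in M against 1.78 times in MR. The sum of Cat and Gpx1 was 1864 TPM in M and 1404 TPM in MR, 1.33-fold lower, while that of the dismutases was higher.

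The order of the levels in M was Cyba, Gpx1, Cybb, Sod1, Ncf1, Cat, Ncf4, Sod2 and Nox1. In MR it was Gpx1, Cyba, Sod1, Ncf4, Cat, Cybb, Sod2, Ncf1 and Nox1. In each library the counting intervals of 1 of the 8 neighbouring pairs overlapped, namely Ncf1 and Cat in M and Cat and Cybb in MR. Cybb was the third in M and the sixth in MR and Ncf1 the fifth and the eighth, while Sod1 and Ncf4 moved up.

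**Figure D2:**
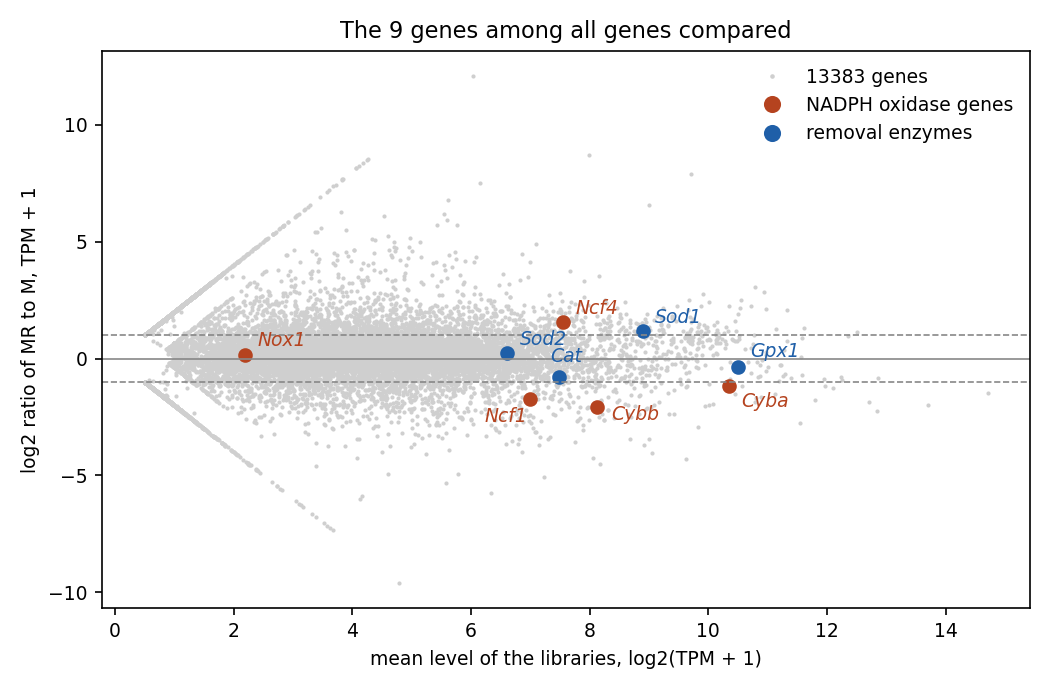
Log2 ratio of MR to M (TPM + 1) against the mean level of both libraries, log2(TPM + 1), for 13383 genes (grey) and the 9 genes (red, oxidase genes; blue, removal enzymes); dashed lines mark ratios of 1 and -1. Cybb, Ncf1 and Cyba lie under the lower line, Ncf4 and Sod1 above the upper line, and Nox1 lies among genes of low level.

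Other proteins regulate or assist the oxidase. Of 10 such partners, 9 had a value and Rap1a lay inside the locus of another gene. Of these, 1 was above 1 and 0 were below -1, with a median log2 ratio of -0.42 and a range from -0.92 to 1.81. Rac2, the Rac GTPase of blood cells, had 170 TPM in M and 601 TPM in MR, a log2 ratio of 1.81. Rac1, the form found in nearly all cells, had 290 TPM in M and 234 TPM in MR, a log2 ratio of -0.31. Rac1 was thus above Rac2 in M and below it in MR.

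Of 8 genes of the other NADPH oxidases and their partners, 2 had a locus, in MR alone. These were Noxo1 with 1.12 TPM and Duoxa1 with 2.45 TPM, which are counted as above 1 only because M is listed at 0. Nox3, Nox4, Noxa1, Duox1, Duox2 and Duoxa2 had no assembled locus in either library, so that Cybb was the catalytic subunit with by far the highest level in both.

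Of 4 genes for the extracellular dismutase and for copper delivery, 4 had a value and 0 were over the threshold, with a median log2 ratio of 0.10. Atox1, a copper chaperone and the most abundant of them, had 384 TPM in M and 560 TPM in MR, a log2 ratio of 0.54. Ccs, which loads copper into the Sod1 protein, had a log2 ratio of 0.39, beside 1.17 for Sod1. Sod3 was near the limit of the assembly, with 1.28 TPM in M and 0.754 TPM in MR.

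Genes of other peroxide removal lay past the threshold on both sides. Of 18 genes, 16 had a value, 5 were above 1 and 6 were below -1, and the median log2 ratio was 0.31. The most abundant gene of the list in both libraries, Prdx1, was among the lower ones, and the summed TPM was 6354 in M and 3857 in MR. Prdx1, a peroxiredoxin of the cytosol, had 3202 TPM in M and 995 TPM in MR, a log2 ratio of -1.68. Prdx5 had 793 TPM in M and 199 TPM in MR, a log2 ratio of -1.99. Prdx4, the peroxiredoxin of the endoplasmic reticulum, had 160 TPM in M and 60.8 TPM in MR, a log2 ratio of -1.38. Some genes that work with glutathione were also on this side. Gpx4, a glutathione peroxidase, was not, with 282 TPM in M and 362 TPM in MR, a log2 ratio of 0.36. Glrx, a glutaredoxin, had 335 TPM in M and 95.3 TPM in MR, a log2 ratio of -1.80. Gpx3, the secreted glutathione peroxidase, had 54.7 TPM in M and 12.2 TPM in MR, a log2 ratio of -2.08.

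The genes on the higher side included peroxiredoxin, thioredoxin and reductase genes. Prdx3, the peroxiredoxin of the mitochondrial matrix, had 43.0 TPM in M and 149 TPM in MR, a log2 ratio of 1.77. Txn2, the mitochondrial thioredoxin that serves it, had 99.0 TPM in M and 213 TPM in MR, a log2 ratio of 1.10. Txnrd1, the cytosolic thioredoxin reductase, had a locus shared with another gene and 83.4 TPM in M and 170 TPM in MR, a log2 ratio of 1.02. Under median-of-ratios scaling Txn2 was at 0.91 and Txnrd1 at 0.83. Gsr, which regenerates glutathione for Gpx1, had 50.1 TPM in M and 134 TPM in MR, a log2 ratio of 1.40, but -1.41 by the listed coverage, so that its direction depends on the unit. Txn1, the cytosolic thioredoxin, was level, with 841 TPM in M and 849 TPM in MR.

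Gpx1 needs selenocysteine, and of 5 genes for its synthesis and insertion 5 had a value and 0 were over the threshold, with a median log2 ratio of 0.38. Sephs2, which makes the selenium donor, had 56.7 TPM in M and 55.4 TPM in MR.

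NADPH feeds both the oxidase and the glutathione and thioredoxin systems. Of 9 genes of NADPH supply 9 had a value, 3 were above 1 and 1 was below -1, with a median log2 ratio of 0.39. G6pdx, the entry enzyme of the pentose phosphate pathway, had 283 TPM in M and 96.1 TPM in MR, a log2 ratio of -1.55. Pgls, the next enzyme of that pathway, differed the other way, with 67.2 TPM in M and 160 TPM in MR, a log2 ratio of 1.24 that was 0.79 by the listed coverage. Pgd, the third, was the most abundant and nearly level, with 423 TPM in M and 413 TPM in MR. The enzymes of this pathway therefore did not differ together. Idh2, the mitochondrial isocitrate dehydrogenase that makes NADPH, had 42.2 TPM in M and 164 TPM in MR, a log2 ratio of 1.94. Me1, the cytosolic malic enzyme, was close to the threshold, with 8.90 TPM in M and 19.0 TPM in MR, a log2 ratio of 1.01 that was 0.83 under median-of-ratios scaling.

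Catalase works beside peroxisomal oxidases that make peroxide, and of 9 such genes 4 had a value, 2 were above 1 and 1 was below -1, with a median log2 ratio of 0.11. Paox, a polyamine oxidase, had 31.9 TPM in M and 7.12 TPM in MR, a log2 ratio of -2.02. Acox3 was the most abundant in M, with 41.8 TPM in M and 23.8 TPM in MR, a log2 ratio of -0.78. Hao1 had a locus in MR alone, with 1.95 TPM, and so did Gpx8 among the peroxidases, with 1.51 TPM. Both are counted as above 1 only because M is listed at 0, and neither is given a fold.

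Over all 7 lists, 49 of 63 genes had a value and 21 of them were over the threshold (42.9%), 13 above 1 and 8 below -1, beside 34.1% of all genes. The 13 include Noxo1, Duoxa1, Gpx8 and Hao1, which had no locus in M and a low level in MR. The share of all genes also holds genes with no locus in M. The lists also hold genes with a shared locus, which the share of all genes leaves out.

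**Figure D3:**
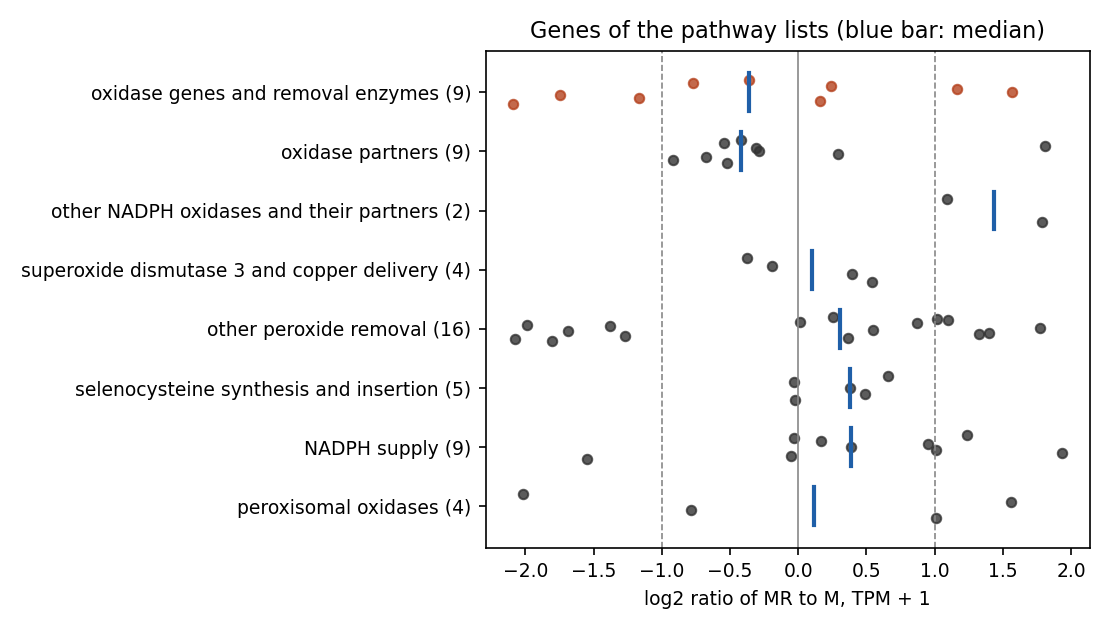
Log2 ratio of MR to M (TPM + 1) of the 9 genes (red) and of the genes with a value in each of 7 pathway lists (dark), with the number of genes in brackets and the median as a blue bar; dashed lines mark 1 and -1. The oxidase partners lie between -0.92 and 0.29 except Rac2 at 1.81, and the genes of peroxide removal spread from -2.08 to 1.77.

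Markers of other cell types differed between the libraries beside these genes. Over all genes compared, 59.5% were higher in MR and 13.0% were below -1. Macrophage and monocyte markers were lower in MR for 7 of 8 genes, 4 of them below -1, and their TPM summed to 20757 in M and 8015 in MR. Adgre1 had a log2 ratio of -2.20 and Mertk of -2.70, beside -2.09 for Cybb, whereas Csf1r, the M-CSF receptor, had 0.32. Lyz2, the most abundant, had 16035 TPM in M and 4535 TPM in MR from a shared locus, and Cd68 had 2607 and 2171 TPM. Neutrophils, which are rich in this oxidase, had 11 of 12 markers lower in MR and 1 below -1, and their TPM summed to 1454 in M and 992 in MR, 1.47-fold lower, beside 4.28-fold for Cybb and 3.39-fold for Ncf1. S100a9 had 435 TPM in M and 360 TPM in MR, and none of the 12 was at 0. The part of these cells in the results was not tested.

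The other lists were at low summed levels. The TPM of B cell markers summed to 28.0 in M and 22.1 in MR, and that of dendritic markers to 14.8 and 20.3, with Xcr1 at 0 in MR. Of 6 T and NK cell markers only Cd4 had a locus, with 13.0 TPM in M and 9.82 TPM in MR, and Cd3e, Cd3g, Cd8a, Klrb1c and Ncr1 had none. Erythroid markers had 3.35 and 2.11 TPM, with Klf1 and Alas2 without a locus and Hbb-bs at 0 in MR. Mast cell and basophil markers had 6.97 and 1.11 TPM, with Ms4a2 and Fcer1a without a locus and Mcpt8 and Cpa3 at 0 in MR. Stromal markers had 17.8 and 24.6 TPM, with Lepr at 0 in M and Cxcl12 at 0 in MR. The exception was the megakaryocyte list, with 538 TPM in M and 72.9 TPM in MR. Nearly all of the sum in M was Pf4, with 505 TPM in M and 38.4 TPM in MR. Ppbp was not lower in MR, with 22.4 TPM in M and 27.3 TPM in MR.

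The ratios of the 9 genes were recomputed with other units, scalings and filters. A filter cannot change the ratio of a gene that passes it. The settings on loci cannot change that of a gene with a single stranded locus in each library. Only the pseudocount, the units and the scalings could therefore move most of these genes. All 9 kept their sign, and 8 of 9 kept their side of the threshold, the exception being Sod1. Cybb lay between -2.28 and -2.09, Cyba between -1.36 and -1.17, Ncf1 between -1.94 and -1.74 and Ncf4 between 1.37 and 1.57. The ranges of Cat, from -0.97 to -0.77, and Gpx1, from -0.56 to -0.36, were within the threshold. Sod2 ranged from 0.05 to 0.81 and Nox1 from 0.01 to 0.55, which are the widest ranges of the 9.

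**Figure D4:**
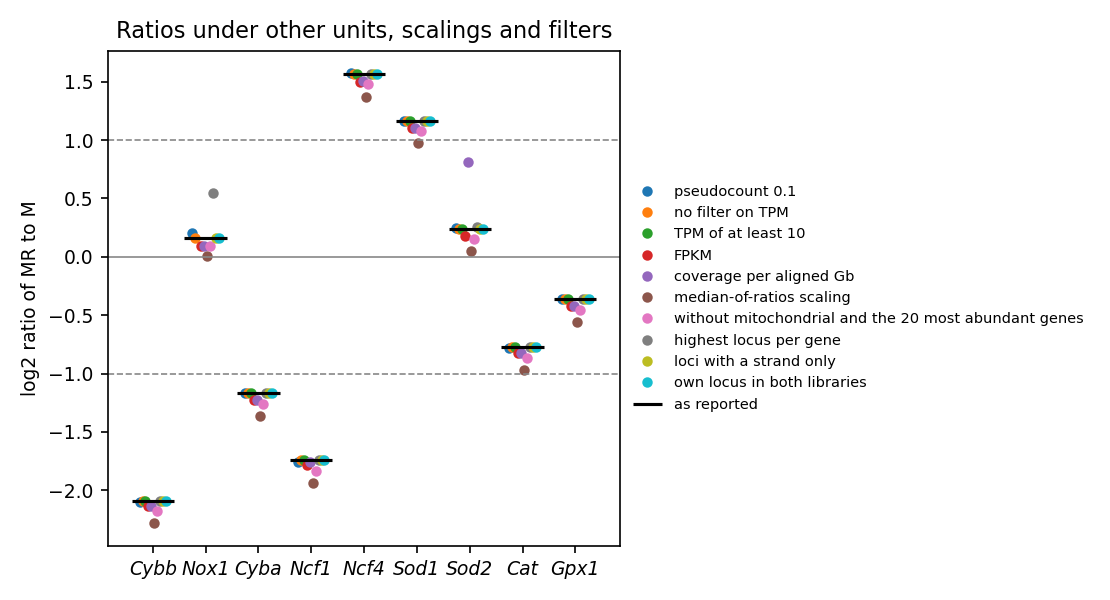
Log2 ratio of MR to M of the 9 genes as reported (black bars) and under up to 10 other units, scalings and filters (coloured points); dashed lines mark 1 and -1. Median-of-ratios scaling gives the lowest ratio of every gene and puts Sod1 at 0.97, and the listed coverage puts Sod2 at 0.81.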

How the data were processed

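RNA-seq of 2 WT bone marrow cultures (M and MR, 1 library each) was analysed. The authors sequenced pairs of 150-base reads on a NovaSeq instrument, removed adaptors with Trim Galore, aligned to mm10 (GRCm38) with HISAT2 and ran StringTie on GENCODE vM27; FastQC and SAMtools are named in the submitters' processing notes. Versions and library strandedness are not given in the sources used here. The deposited tables list for each entry a coverage, a signal of reads per base that is not scaled for depth, an FPKM and a TPM. The deposited TPM are scaled so that the assembled loci (19422 in M, 19922 in MR) alone sum to 1000000, and 55366 and 55364 entries with gene names hold a further 87233.7 and 129263.9 TPM. These named entries were not used, because vM27 gives positions on GRCm39.

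Loci were assigned to GENCODE vM21 genes by the largest overlap with exons (50 bases or more, strand permitting), which placed 15665 loci of M (95.4% of TPM) and 16523 of MR (96.9%). Of 14870 genes, 14323 had an own locus, 339 shared it with a coding gene that had 50% or more of its exon bases there, and 208 were contained in a neighbour's locus and received no value. The comparison over all genes used those with an own locus that reached 1 TPM in either library, the gene lists also those with a shared locus, and a missing locus counted as 0. This assignment was tested on simulated loci that each spanned nearly the whole of a coding gene. Loci in pieces or cut short, as for Nox1 and Sod2, were not simulated, so the test does not cover them. No p-value was computed.

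Aligned bases were read off the mode of coverage divided by FPKM, over entries above 5 FPKM (44.0% of them at the mode in M, 47.1% in MR). Read pairs were estimated as FPKM times aligned Gb times length over 300, with exact Poisson intervals for TPM and Wilson intervals for ratios; these cover counting error only. The genes and lists were chosen with earlier results of these data known. Named in the text are the 9 genes, list genes over the threshold with at least 10 TPM and the most abundant gene of each list, and for markers the most abundant genes and those at 0; others were chosen after their values were seen. Some genes of the lists are counted but not reported here by name. Alternatives were a pseudocount of 0.1, no filter or at least 10 TPM, FPKM, coverage per aligned Gb, median-of-ratios scaling, TPM without mitochondrial and the 20 most abundant genes, the highest locus per gene, stranded loci only, a locus of its own in both libraries, and a log2 threshold of 2. Software was Python 3.11.15 with scipy 1.17.1, matplotlib 3.10.9, pandas 2.3.3 and numpy 2.4.6.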

Additional observations from a re-analysis of the deposited data

Results flagged for a closer look

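Within Ncf4 and Sod2 lay assembled loci that were given to no gene and entered no value of the report. They rest on few reads and have no counting interval, so no direction is read from them. The locus within Ncf4, on its strand from 78253448 to 78253557 of chromosome 15 (110 bases), had 4.17 TPM in M and 6.87 TPM in MR. It stands out because signal appears outside the measured exons, and both its ends coincide with ends of an entry with a gene name. Such entries hold positions on GRCm39, and what this locus represents was not tested. The locus within Sod2, on the opposite strand from 13038706 to 13039729 of chromosome 17, had 1.19 TPM in M and 1.38 TPM in MR, and its ends coincide in the same way. The ends of another locus within Sod2, from 13037680 to 13038424 on the strand of the gene, do so too. That locus is part of the Sod2 sum, with 0.914 TPM in M and 0.142 TPM in MR.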

How the results depend on the processing

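Of 391 values recomputed under 11 alternatives, 328 were equal to the reported value or stayed within its counting interval (for the median, an order-statistic interval over the 9 genes, and for counts, within 1.5 times), 62 moved further or, for Duoxa1, differed with no interval to set them against, and 1 reversed. Many of the equal values were fixed in advance, because filters and settings on loci cannot change the ratio of a gene with a single stranded locus. The count of 328 is therefore no measure of stability. The reversed value was Gsr, at -1.41 by coverage per aligned Gb, and the cause was not tested. The number of all genes over the threshold was 2563 (1590 higher and 973 lower in MR) with at least 10 TPM, 2897 (1795 and 1102) with a locus of its own in both libraries, which leave fewer genes to compare, and 1433 (932 and 501) at a log2 threshold of 2. Of the 9 genes, 1 was over the threshold and higher in MR under median-of-ratios scaling. At a log2 threshold of 2, 0 of the 9 were over it on the higher side, 1 (Cybb) on the lower side, and 2 genes of the pathway lists. Median-of-ratios scaling moved the median of all genes by -0.18, and the share of higher genes among those over the threshold went from 61.8% to 53.0%. No paired analysis was possible because each group had 1 library, and for the same reason no library could be left out. Depth limits Nox1, whose ratio rests on 11 and 17 read pairs.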

Other observations

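Genes whose products work in mitochondria occur in several of the lists, and this grouping was made after the values were seen. Idh2 had a log2 ratio of 1.94, Prdx3 of 1.77, Txn2 of 1.10 and Nadk2, the mitochondrial NAD kinase, of 0.95. Txnrd2, the mitochondrial thioredoxin reductase, had 0.25, Sod2 0.24 and Nnt, the transhydrogenase of the inner membrane, 0.17 from a shared locus. Prdx5, found in mitochondria and elsewhere, had -1.99. No test was made of this grouping.

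A further locus within Ncf1, on the opposite strand, had 1.78 TPM in M and 0.499 TPM in MR, and one within Nox1, also on the opposite strand, had 1.19 TPM in M alone. These too rest on few reads and have no counting interval, so no direction is read from them.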
